A study of Mus musculus with 6 samples.

Results

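Small nucleolar RNAs (snoRNAs) are short RNAs that guide the chemical modification or the cleavage of ribosomal RNA. In mammals most of them are not transcribed on their own but are cut out of the introns of a longer host transcript. Some hosts encode ribosomal or nucleolar proteins, and others code for no protein of known use, so that their spliced exons are left over once the introns are processed. The spliced RNA of several noncoding hosts is known as a substrate of nonsense-mediated decay, the pathway that degrades RNAs with an early stop codon. Many hosts also start with a run of pyrimidines (the 5′ terminal oligopyrimidine or TOP element), which they share with the mRNAs of ribosomal proteins. The 10 noncoding hosts described here were taken by gene symbol and are Gas5, Snhg1, Snhg3, Snhg5, Snhg6, Snhg8, Snhg12, Snhg15, Snhg17 and Snhg20. They made up 10 of the 14774 genes in the deposited counts. All 10 passed the filter on low counts, which left 11939 genes for testing.

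The libraries came from total RNA of untreated mouse cells, 3 from MA-10 cells and 3 from STARKO1 cells, and were made with a stranded kit. MA-10 is a wild-type mouse tumor Leydig cell line, a model of the testis cells that make androgens. STARKO1 is 1 clone grown from a single MA-10 cell after CRISPR/Cas9 had introduced a frameshift into Star, which encodes the protein that brings cholesterol into mitochondria. With 1 clone, an effect of the loss of Star and a property of the clone cannot be told apart. The labels do not say whether the 3 libraries of a cell line came from separate cultures, so the p-values measure only the spread between these libraries, which may be technical.

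**Figure D1:**
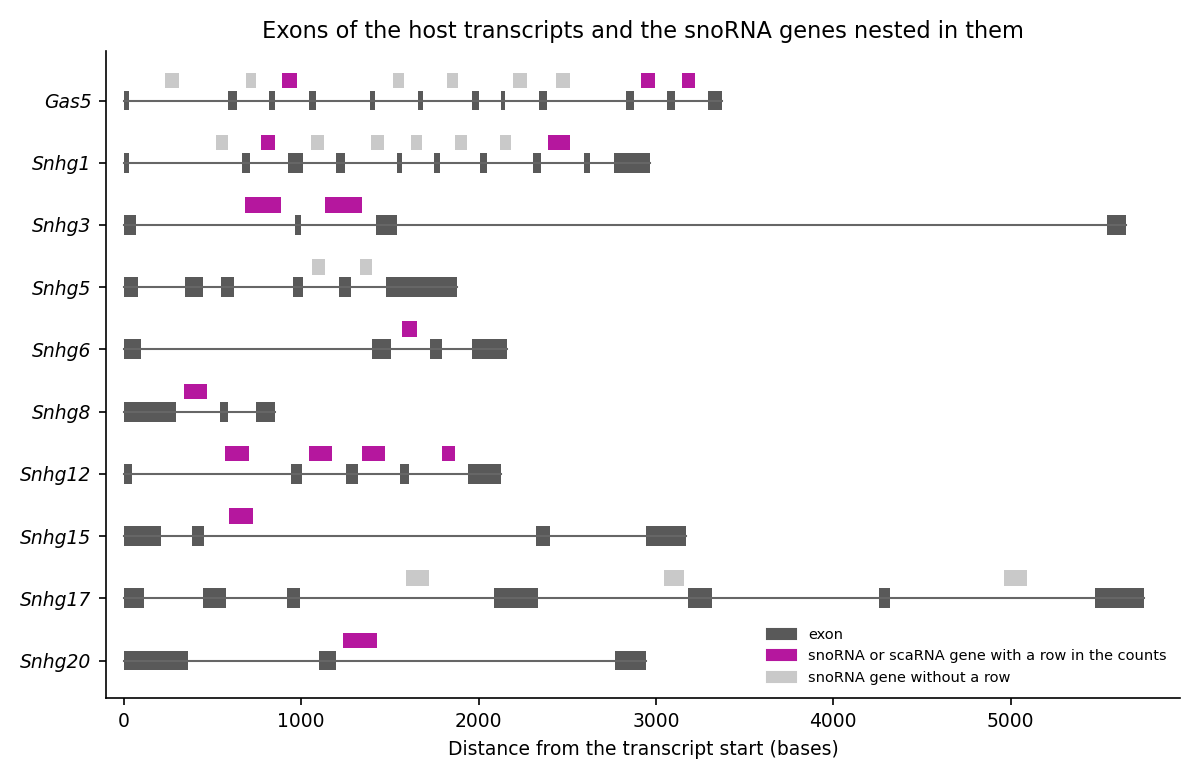
The horizontal axis gives the distance in bases from the start of the annotated transcript with the most exons of each of the 10 host genes, which are arranged vertically. Dark boxes are exons, purple boxes are snoRNA or scaRNA genes with a row in the counts, and light boxes are snoRNA genes without one. Snhg12 holds 4 snoRNA genes with a row, while Snhg5 and Snhg17 hold none.

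The annotation of mouse build GRCm38 (GENCODE M21) placed 9 snoRNA loci within Gas5, 8 within Snhg1, 4 within Snhg12, 3 within Snhg17, 2 each within Snhg3 and Snhg5, and 1 each within Snhg6, Snhg8 and Snhg15. Snhg20 held 1 scaRNA gene, a relative of the snoRNAs that resides in Cajal bodies. Of these genes, 15 had a row of their own in the counts. They lie mainly in introns of the annotated host transcripts, as the map of exons and nested genes shows. Gas5 (growth arrest specific 5) occupies chromosome 1 from 161034422 to 161038539 on the plus strand. Snhg12 and Snhg3 both lie on chromosome 4, Snhg12 from 132308623 to 132311024 on the plus strand and Snhg3 from 132348014 to 132353686 on the minus strand. Snhg5 lies on the minus strand of chromosome 9 from 88521050 to 88522929. Snhg8 is the shortest of the 10, with 853 bases on the minus strand of chromosome 3 (123507552 to 123508404), and Snhg17 on chromosome 2 (158353700 to 158361580, minus strand) is the longest, with 7881 bases.

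The starts of the hosts are shown because a pyrimidine run at this place is the sequence feature best known for the class. Each line gives 60 bases of the RefSeq sequence of build GRCm38.p6 on the transcript's strand, 30 before the annotated start and 30 from it onwards. Capitals mark the longest unbroken run of C and T letters, in any order, that lay within 20 bases on either side of the start. Of the 2 starts that RefSeq gives for Gas5, the second is shown.
Gas5, chr1:161035136-161035195, plus strand: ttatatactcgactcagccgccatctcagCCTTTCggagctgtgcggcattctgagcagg
Snhg1, chr19:8723457-8723516, plus strand: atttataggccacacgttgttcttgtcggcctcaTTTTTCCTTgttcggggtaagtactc
Snhg5, chr9:88522868-88522927, minus strand: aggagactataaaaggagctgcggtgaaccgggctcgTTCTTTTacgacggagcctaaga
Snhg8, chr3:123508307-123508366, minus strand: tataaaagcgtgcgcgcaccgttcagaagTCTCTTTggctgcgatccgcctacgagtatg
Snhg12, chr4:132308648-132308707, plus strand: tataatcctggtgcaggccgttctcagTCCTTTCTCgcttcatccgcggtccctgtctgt
Snhg15, chr11:6528731-6528790, minus strand: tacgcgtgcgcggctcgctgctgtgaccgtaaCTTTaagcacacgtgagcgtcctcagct
The run was 9 letters long in Snhg1 and Snhg12, 7 in Snhg5 and Snhg8, and 6 at this Gas5 start. It was 5 letters long in Snhg3 and Snhg20 and 4 in Snhg15. The 2 starts of Snhg17 had runs of 7 and 6 letters, and the other start of Gas5 had 3. The run of 7 letters in Snhg17 began at position -20 and the run in Snhg20 at -16. Both thus lay wholly before the annotated start. Among all 32851 promoter sequences of the same table, searched in the same window on the transcript's strand only, 57.5% held a run of at least 5 letters, 24.3% one of at least 7 and 10.7% one of at least 9. Runs of this kind are thus common, and a run near an annotated start was not tested here as a working TOP element.

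Total counts lay between 14114351 and 19530062 per library. Values are given as CPM, the usual measure of a gene's share of a library, with the library size scaled by TMM (trimmed mean of M-values), and 3 counts, the smallest level taken as shown, corresponded to at most 0.264 CPM. The targeted Star had 1064, 1261 and 697 counts in MA-10 replicates 1, 2 and 3 against 48, 46 and 36 in the STARKO1 libraries. All 11 Leydig cell markers on the list were tested, of which Star and the steroid dehydrogenase Hsd3b1 fell (log2 fold change of Hsd3b1 -2.52, edgeR adjusted p = 0.00268). Over all tested genes 4.74% passed an adjusted p of 0.05 and were lower, and 9.04% passed in either direction. At an unadjusted p under 0.05, 3 of the 11 markers were lower and 2 higher, against 22.7% of all genes lower and 37.6% in either direction. Among these markers were the side-chain cleavage enzyme Cyp11a1 at -0.93 (edgeR adjusted p = 0.067) and the androgen synthesis enzyme Cyp17a1 at 1.27 (adjusted p = 0.0949). Of the 6 germ cell markers only Ddx4 was in the counts, at 1.91 to 3.55 CPM. Of the 6 Sertoli cell markers only Rhox5 was in the counts, at 314 to 568 CPM. Of the 6 macrophage markers 3 were in the counts, of which Csf1r had 4.597 to 9.68 CPM, and of the 5 endothelial markers Cdh5 rose (log2 fold change 1.84, edgeR adjusted p = 0.00596) while Pecam1 was under 1 CPM in every library. Disagreement among replicates was far larger in MA-10 than in STARKO1 cells, since chi-square over its degrees of freedom was 99.7 to 593 between MA-10 libraries and 5.05 to 9.79 between STARKO1 libraries. MA-10 replicate 1 stood apart from the other MA-10 libraries and was near the STARKO1 libraries in its make-up. 7SL, the RNA scaffold of the particle that brings nascent proteins to the endoplasmic reticulum (Rn7s1 plus Rn7s2), made up 1.81%, 14.4% and 6.63% of MA-10 libraries 1, 2 and 3, against 1.82% to 2.37% in the STARKO1 libraries. The noncoding RNA Gm26917 took 8.71%, 0.571% and 1.63% in the same MA-10 libraries and 4.97% to 6.03% in the STARKO1 libraries.

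The host genes were lower in STARKO1 than in MA-10 cells on average, and the difference was largest against MA-10 replicates 2 and 3. Summed over the 10 genes, replicates 1, 2 and 3 had 207, 1078 and 694 CPM in MA-10 cells and 170, 178 and 166 CPM in STARKO1 cells. Every MA-10 library was thus above every STARKO1 library in this sum, but replicate 1 only narrowly. Lower CPM means a smaller share of the library, and fewer cells that carry an RNA and less of it per cell cannot be told apart. By the quasi-likelihood test of edgeR, with Benjamini-Hochberg adjustment over all 11939 genes, 2 of the 10 hosts, Snhg5 and Snhg12, passed an adjusted p of 0.05, both lower in STARKO1 cells. Over all tested genes 4.74% passed and were lower, and 9.04% passed in either direction. At an unadjusted p under 0.05, 8 of the 10 were lower and none higher, against 22.7% of all genes lower and 37.6% in either direction. The 3 STARKO1 values lay below the 3 MA-10 values for 5 of the 10, against 21.0% of all genes, and 42.5% of all genes had no overlap in either direction. All 10 estimates were negative, against 52.9% of all genes, with a median log2 fold change of -1.57 against -0.05.

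**Figure D2:**
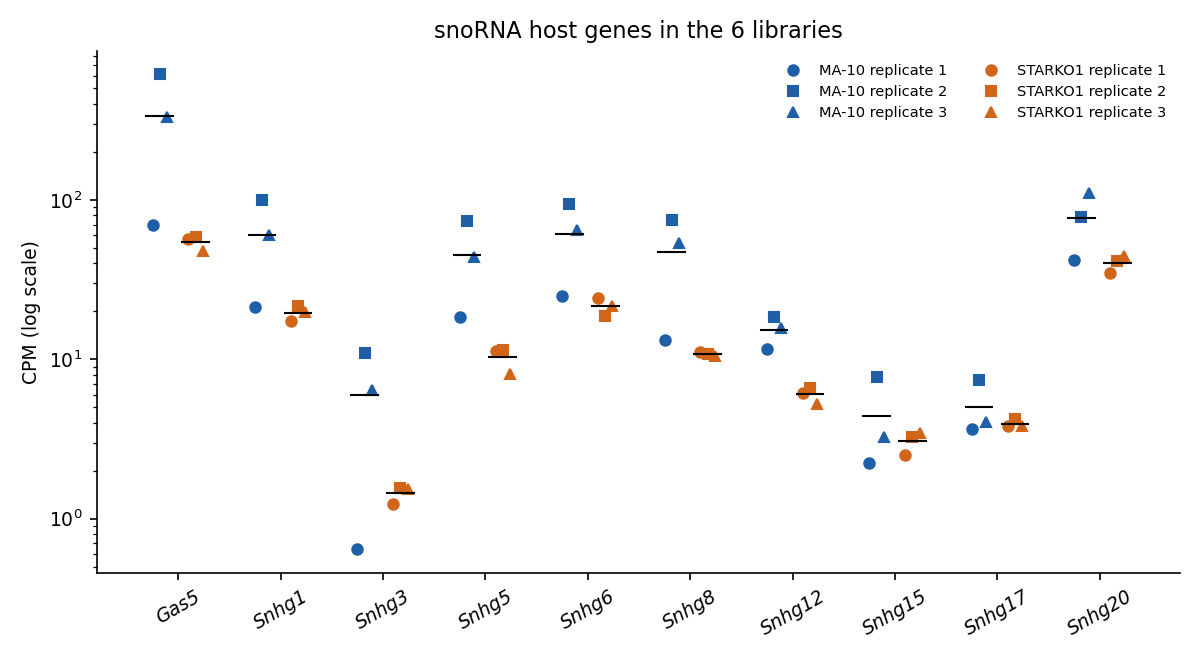
Each point is the level of 1 of the 10 host genes in 1 library, in CPM on a log axis, and horizontal bars are means over the 3 libraries of a cell line (blue MA-10, orange STARKO1, with the symbol giving the replicate). The STARKO1 points of a gene lie close together, while MA-10 replicate 2 is highest for 9 of the 10 genes and MA-10 replicate 1 lies next to the STARKO1 points for most of them.

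The hosts of box C/D snoRNAs, which guide the methylation of ribosomal RNA, had among them the most abundant of the 10. Gas5, whose spliced RNA accumulates in growth-arrested cells and can bind the glucocorticoid receptor, had 69.2, 612 and 330 CPM in the MA-10 libraries and 57.2, 58.5 and 47.6 CPM in the STARKO1 libraries. The cell lines did not overlap, and MA-10 replicate 1 was nearer to every STARKO1 library than to the other MA-10 libraries. The means were 337 ± 272 CPM (SD, n = 3) and 54.4 ± 5.93 CPM (SD, n = 3), and the log2 fold change of -2.63 (SE, the standard error, 0.700) came with an edgeR adjusted p of 0.0601, which missed the threshold.

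Snhg5, the host of Snord50a and Snord50b, had 18.3, 74.1 and 43.6 CPM in the MA-10 libraries and 11.3, 11.5 and 8.15 CPM in the STARKO1 libraries. It fell in STARKO1 cells by 2.13 on the log2 scale, or 4.38-fold, with an SE of 0.486 and an edgeR adjusted p of 0.0441. All 3 MA-10 libraries were above all 3 STARKO1 libraries. Leaving out single libraries ended the call in 5 of 6 cases, where the adjusted p was 0.0837 without MA-10 replicate 2, 0.144 without MA-10 replicate 3, and 0.174, 0.162 and 0.193 without STARKO1 replicates 1, 2 and 3. It was also lost with the replicate number as a block (adjusted p = 0.0805).

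Snhg1, a multi-snoRNA host that includes Snord22, had 21.3, 99.8 and 60.7 CPM in the MA-10 libraries and 17.4, 21.5 and 19.9 CPM in the STARKO1 libraries. MA-10 replicate 1 fell just below the highest STARKO1 library, so the cell lines overlapped. The log2 fold change was -1.63 (SE 0.505, edgeR adjusted p = 0.0758). Snhg6, the host of Snord87, had 25.1, 93.8 and 64.7 CPM in the MA-10 libraries and 24.3, 18.7 and 21.6 CPM in the STARKO1 libraries, with no overlap by a narrow margin. Its log2 fold change was -1.50 (SE 0.445) with an edgeR adjusted p of 0.0699.

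The hosts of box H/ACA snoRNAs, which guide the conversion of uridine to pseudouridine, gave a mixed picture. Snhg8, the host of Snora24, had 13.2, 74.8 and 53.6 CPM in the MA-10 libraries and 11.1, 10.8 and 10.5 CPM in the STARKO1 libraries. The STARKO1 values lay close to each other and below every MA-10 value, and the log2 fold change was -2.12 (SE 0.569, edgeR adjusted p = 0.0606). Snhg3 holds both copies of Snora73, an H/ACA RNA that takes part in the cleavage of the ribosomal RNA precursor. It had 0.647, 10.9 and 6.43 CPM in the MA-10 libraries and 1.24, 1.55 and 1.54 CPM in the STARKO1 libraries. MA-10 replicate 1 was the lowest of the 6 libraries, with 11.3 counts, and the log2 fold change of -2.05 had an SE of 0.848 and an adjusted p of 0.129.

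Snhg15, the host of Snora9, had 2.23, 7.77 and 3.24 CPM in the MA-10 libraries and 2.52, 3.27 and 3.43 CPM in the STARKO1 libraries. Snhg17 had 3.63, 7.37 and 4.05 CPM in the MA-10 libraries and 3.83, 4.22 and 3.81 CPM in the STARKO1 libraries. In both genes MA-10 replicate 2 alone lay above the STARKO1 range. The log2 fold changes were -0.52 (SE 0.470) for Snhg15 and -0.33 (SE 0.312) for Snhg17, with adjusted p of 0.433 and 0.449. Without MA-10 replicate 2 both estimates turned positive, to 0.17 for Snhg15 and 0.051 for Snhg17.

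Snhg12 holds genes of both snoRNA classes and had the lowest adjusted p of the 10. It had 11.6, 18.5 and 15.7 CPM in the MA-10 libraries and 6.13, 6.65 and 5.28 CPM in the STARKO1 libraries. The lowest MA-10 library was well above the highest STARKO1 library. The means were 15.3 ± 3.47 CPM (SD, n = 3) and 6.02 ± 0.695 CPM (SD, n = 3), so that Snhg12 fell by 1.34 on the log2 scale, or 2.52-fold, with an SE of 0.226 and an edgeR adjusted p of 0.0215. The call was kept without MA-10 replicate 1 (adjusted p = 0.000105) and without MA-10 replicate 2 (0.0445). It was lost without MA-10 replicate 3 (0.0912), without STARKO1 replicates 1, 2 and 3 (0.126, 0.105 and 0.132) and with the replicate block (0.0594). Snhg20, the scaRNA host, had 41.7, 78.6 and 111 CPM in the MA-10 libraries and 34.9, 41.4 and 44.2 CPM in the STARKO1 libraries. It was the only host whose highest value was in MA-10 replicate 3, and MA-10 replicate 1 lay inside its STARKO1 range. Its log2 fold change was -0.94 (SE 0.345, edgeR adjusted p = 0.101).

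**Figure D3:**
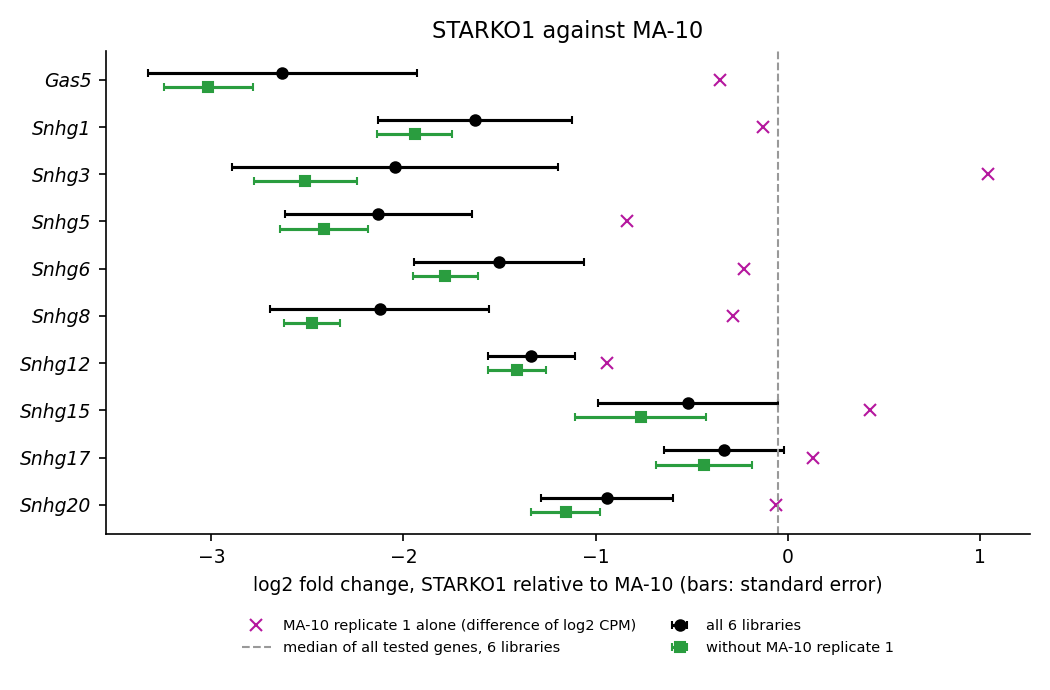
The horizontal axis is the log2 fold change of STARKO1 relative to MA-10 cells for each of the 10 host genes, from all 6 libraries (black, bars are standard errors (SE)) and without MA-10 replicate 1 (green). Crosses give the difference of log2 CPM when MA-10 replicate 1 alone stands for the line, and the dashed line at -0.05 is the median of all tested genes. On that measure Gas5 is at -2.15 with all libraries and -0.35 with replicate 1 alone, and Snhg12 at -1.30 and -0.94.

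The hosts differed from each other in how far MA-10 replicate 1 stood from MA-10 replicate 2. The CPM in replicate 2 were 16.9 times those in replicate 1 for Snhg3, 8.84 times for Gas5, 5.69 times for Snhg8, 4.68 times for Snhg1, 4.04 times for Snhg5 and 3.73 times for Snhg6. The ratio was 3.48 for Snhg15, 2.03 for Snhg17, 1.88 for Snhg20 and 1.59 for Snhg12, the smallest. With MA-10 replicate 1 left out, 8 of the 10 hosts passed an adjusted p of 0.05 and were lower in STARKO1 cells, all except Snhg15 and Snhg17, but 31.7% of all tested genes did so as well and 65.7% passed in either direction. Their log2 fold changes in that fit ran from -1.16 for Snhg20 (SE 0.180, edgeR adjusted p = 0.000734) to -3.02 for Gas5 (SE 0.232, adjusted p = 2.76e-05). When MA-10 replicate 1 alone was set against the 3 STARKO1 libraries, as a difference of log2 CPM with no test, Snhg12 was at -0.94 and Snhg5 at -0.84. Gas5 was at -0.35, Snhg8 at -0.28, Snhg6 at -0.23, Snhg1 at -0.13 and Snhg20 at -0.06, while Snhg17 (0.13), Snhg15 (0.43) and Snhg3 (1.04) were higher in STARKO1 cells.

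The scale used moved 2 of the 10 directions. With scaling by library size alone, Snhg15 (0.067) and Snhg17 (0.19) turned positive, which left 8 of the 10 negative against 29.4% of all genes. The median of all genes moved by 0.43 under this scaling, and both hosts stayed below it, by 0.31 and 0.18. No host passed by edgeR, where 1.01% of all genes passed and were lower, and 6 of the 10 were lower at an unadjusted p under 0.05, against 9.22% of all genes. With DESeq2, 7 of the 10 passed and were lower, against 15.4% of the genes to which it gave an adjusted p, or 24.9% in either direction. With the replicate number as a block no host passed by edgeR, where 1.07% of all genes passed and were lower, and 7 of the 10 were lower at an unadjusted p under 0.05, against 16.9% of all genes.

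Levels of different hosts can be set side by side only per length. Per kilobase of the transcript with the most exons, the order in STARKO1 cells was Gas5 (108 ± 11.8 CPM per kb, SD, n = 3), Snhg20 (63.2 ± 7.49), Snhg6 (45.6 ± 5.92), Snhg1 (32.4 ± 3.40), Snhg8 (24.1 ± 0.739), Snhg12 (14.3 ± 1.65), Snhg5 (13.2 ± 2.41), Snhg15 (5.19 ± 0.824), Snhg3 (4.34 ± 0.533) and Snhg17 (3.78 ± 0.221). Snhg12 and Snhg5 did not differ beyond their spread, and neither did Snhg15 and Snhg3, or Snhg3 and Snhg17. In MA-10 cells Gas5 was again first, at 672 ± 541 CPM per kb (SD, n = 3), and Snhg17 last, at 4.80 ± 1.96, but the 3 MA-10 libraries spread so widely that most neighbours in the order overlapped. The order depends on the length taken, since many annotated transcripts of these genes retain introns. Per kilobase of all annotated exons together, Snhg6 stood first in STARKO1 cells with 18.8 ± 2.44 CPM per kb (SD, n = 3), ahead of Gas5 with 14.5 ± 1.58.

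The snoRNA genes inside the hosts were counted in rows of their own, and sequences are shown because reads within them could be counted for the host or for the snoRNA. For Gas5, Snhg6 and Snhg12 each line gives 1 nested gene from the GENCODE M21 transcripts of build GRCm38, on its own strand. Capitals mark the C box letters ATGATG or GTGATG within the first 20 bases and the D box letters CTGA within the last 15 in box C/D RNAs, and the ACA that lies 3 bases before the end in H/ACA RNAs.
Gm22357 in Gas5, chr1:161036057-161036139, plus strand: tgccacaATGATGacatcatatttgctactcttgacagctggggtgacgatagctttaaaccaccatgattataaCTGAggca
Snord47 in Gas5, chr1:161038082-161038158, plus strand: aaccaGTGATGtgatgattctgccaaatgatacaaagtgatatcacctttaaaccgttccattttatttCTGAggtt
Snord87 in Snhg6, chr1:9942463-9942549, minus strand: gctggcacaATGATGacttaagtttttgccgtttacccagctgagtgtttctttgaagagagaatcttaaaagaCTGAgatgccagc
Snora16a in Snhg12, chr4:132309464-132309600, plus strand: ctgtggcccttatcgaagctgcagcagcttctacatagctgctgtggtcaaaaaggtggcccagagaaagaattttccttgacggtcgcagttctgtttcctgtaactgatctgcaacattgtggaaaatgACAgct
Of the 15 nested genes with a row, 5 held both boxes in these places and 7, the scaRNA gene Gm26083 included, held an ACA at that position. Among all 1507 annotated snoRNAs, 22.4% held both boxes and 18.3% an ACA in the same place. The 2 copies in Snhg3 are shown together because they are nearly identical, with 198 of 205 bases alike (96.6%), so that the division of reads between them is uncertain.
Snora73a in Snhg3, chr4:132352775-132352979, minus strand: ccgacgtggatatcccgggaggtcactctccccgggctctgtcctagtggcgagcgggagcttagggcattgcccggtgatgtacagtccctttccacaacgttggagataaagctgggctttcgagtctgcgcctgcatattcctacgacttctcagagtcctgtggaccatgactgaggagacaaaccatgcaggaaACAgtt
Snora73b in Snhg3, chr4:132352322-132352526, minus strand: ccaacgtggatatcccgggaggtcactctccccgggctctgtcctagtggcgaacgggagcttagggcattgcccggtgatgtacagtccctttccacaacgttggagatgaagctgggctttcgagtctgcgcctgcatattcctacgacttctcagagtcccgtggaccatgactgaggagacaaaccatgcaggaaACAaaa

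Of the 15 nested rows, 11 were tested, and none passed an adjusted p of 0.05 by edgeR. Without adjustment, 6 of the 11 were lower in STARKO1 cells at p under 0.05, against 22.7% of all genes. DESeq2 fitted 14 rows and passed 6, all lower, against 15.4% of all genes. The median log2 fold change was -1.06 over the 11 rows by edgeR and -1.28 over the 14 by DESeq2. Without MA-10 replicate 1, edgeR tested 13 rows, of which 9 passed lower and 4 (Snora73a, Snora73b, Snora44 and Gm26083) passed higher. In that fit 31.7% of all tested genes passed lower and 65.7% in either direction. Snora44 and Gm26083 had less than 1 count in each of MA-10 replicates 2 and 3.

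In 7 of the 11 tested rows MA-10 replicates 2 and 3 were above all 3 STARKO1 libraries, as in each of their hosts except Snhg15. Gm22357 had 2.51, 39.2 and 18.4 CPM in the MA-10 libraries and 4.11, 2.41 and 2.77 CPM in the STARKO1 libraries, with a log2 fold change of -2.68 (SE 0.861, edgeR adjusted p = 0.0805). Snord47, the other tested row in Gas5, was below Gm22357 in every library, with 0.542, 3.89 and 2.43 CPM in the MA-10 libraries against 0.490, 0.634 and 0.305 CPM in the STARKO1 libraries. In both, as in Gas5 itself, MA-10 replicates 2 and 3 were high. MA-10 replicate 1 lay among the STARKO1 libraries in both rows, and just above them in Gas5. Snord87 of Snhg6 had 0.974, 11.6 and 5.37 CPM against 1.25, 1.06 and 1.07 CPM, and Snord22 of Snhg1 had 9.69, 36.5 and 24.4 CPM against 8.52, 8.84 and 11.0 CPM. Snora24 of Snhg8 (0.819, 1.63 and 1.66 CPM against 0.708, 0.7997 and 0.664) and Snora9 of Snhg15 (1.43, 2.98 and 2.31 CPM against 0.837, 1.21 and 1.12) did not overlap between the cell lines, at log2 fold changes of -0.89 and -1.06. The 4 rows that could not be tested were Gm25789 in Gas5, Gm25894 in Snhg1, and Snora61 and Snord99 in Snhg12.

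Snora16a, an H/ACA RNA of Snhg12, differed more between the MA-10 libraries than its host, since replicate 2 had 9.73 times the CPM of replicate 1. It had 2.94, 28.6 and 20.6 CPM in the MA-10 libraries and 2.70, 3.62 and 3.52 CPM in the STARKO1 libraries. The 4 nested rows together held 0.341, 1.84 and 1.40 counts per host count in the MA-10 libraries and 0.642, 0.622 and 0.928 in the STARKO1 libraries. With the nested rows added to the host, the Snhg12 locus had a log2 fold change of -1.77 (SE 0.416, edgeR adjusted p = 0.0474), still past the threshold.

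In the Snhg3 locus the snoRNAs and the host had roughly opposite orders among the libraries. Snora73a had 14.3, 3.73 and 4.397 CPM in the MA-10 libraries and 10.5, 10.7 and 10.6 CPM in the STARKO1 libraries, and Snora73b had 10.3, 5.12 and 4.58 CPM against 8.17, 9.73 and 11.5 CPM. The libraries with the most host RNA, MA-10 replicates 2 and 3, thus had the least Snora73. The log2 fold changes of 0.48 for Snora73a (SE 0.496, adjusted p = 0.489) and 0.54 for Snora73b (SE 0.341, adjusted p = 0.271) did not pass by edgeR. Without MA-10 replicate 1 both passed, at 1.47 (adjusted p = 0.00013) and 1.10 (adjusted p = 0.00172), in a fit where 65.7% of all tested genes passed. Per count of Snhg3 there were 38.1 Snora73 counts in MA-10 replicate 1, 0.809 in replicate 2 and 1.40 in replicate 3, against 15.1, 13.2 and 14.4 in STARKO1 replicates 1, 2 and 3. With both copies added to the host, the locus had 25.3, 19.8 and 15.4 CPM in the MA-10 libraries and 19.9, 22.0 and 23.7 CPM in the STARKO1 libraries, and the log2 fold change turned from -2.05 to 0.11 (SE 0.214, adjusted p = 0.713). How much of either row is snoRNA and how much is host intron or precursor was not tested. All 6 libraries had values for Snhg3 that were not whole, so the authors' counting had already divided reads between rows.

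Gm26083 in Snhg20, with 4.19 CPM in MA-10 replicate 1 and 1.96, 2.00 and 0.365 CPM in the STARKO1 libraries, was listed at essentially 0 in MA-10 replicates 2 and 3, and Snora44 in Snhg12 had 0.933, 0.0674 and 0.00624 CPM against 1.05, 0.516 and 0.642 CPM. Both had less than 1 count in each of MA-10 replicates 2 and 3, where their hosts were highest. In MA-10 replicate 1, where Snhg12 was also above every STARKO1 library, Snora44 had 16.3 counts.

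**Figure D4:**
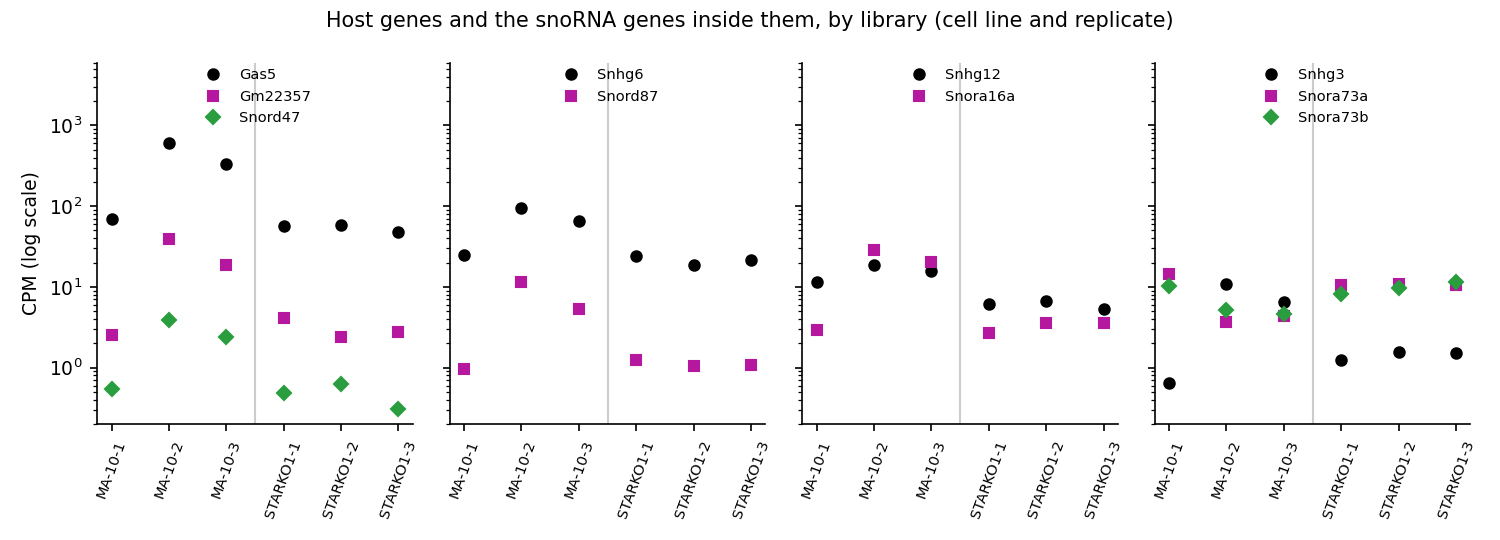
Levels in CPM, on a log axis shared by the 4 panels, of Gas5, Snhg6, Snhg12 and Snhg3 (black) and of snoRNA genes nested in them (purple, green) in each library, with a grey line between the MA-10 and STARKO1 libraries. Gm22357 and Snord47 of Gas5, Snord87 of Snhg6 and Snora16a of Snhg12 are high in MA-10 replicates 2 and 3 like their hosts. Snora73a and Snora73b are low there, while Snhg3 is high. Of the 4 nested rows of Snhg12 only Snora16a is shown.

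Of the 3 protein-coding genes in the counts that overlap a host or start next to one, none passed by edgeR at an adjusted or an unadjusted p under 0.05, and none passed by DESeq2. Zbtb37, which encodes a zinc finger protein and overlaps Gas5 by 428 bases on the opposite strand, had 24.1, 11.97 and 14.6 CPM in the MA-10 libraries and 19.96, 18.9 and 15.8 CPM in the STARKO1 libraries (log2 fold change 0.11, SE 0.281, adjusted p = 0.796). It was highest in MA-10 replicate 1, where Gas5 was lowest among the MA-10 libraries. Slc3a2, the heavy chain of an amino acid transporter, starts 106 bases from the start of Snhg1 on the opposite strand and had a log2 fold change of -0.40 (SE 0.216, adjusted p = 0.213). Rcc1, the exchange factor of the GTPase Ran, overlaps Snhg3 by 5592 bases on the same strand and had 34.5, 40.2 and 45.2 CPM against 28.8, 32.9 and 32.2 CPM (log2 fold change -0.35, SE 0.164, adjusted p = 0.163). Since Snhg3 lies mostly within Rcc1 and has far fewer counts, its value depends on how the reads of that stretch were divided. Whether the counting used the strand is not given in the sources used here. Without MA-10 replicate 1 all 3 passed, Zbtb37 at 0.55 (adjusted p = 0.0177), Slc3a2 at -0.42 (0.0279) and Rcc1 at -0.36 (0.0318). In that fit 65.7% of all tested genes passed in either direction.

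Of 11 other noncoding snoRNA hosts on the list, 7 were in the counts and 6 were tested. Zfas1, a host of box C/D snoRNAs, fell, with 7.40, 20.1 and 14.1 CPM in the MA-10 libraries and 5.35, 4.47 and 4.39 CPM in the STARKO1 libraries (log2 fold change -1.54, SE 0.364, edgeR adjusted p = 0.0483). Dancr had 2.29, 15.4 and 12.2 CPM against 3.57, 2.95 and 3.93 CPM (log2 fold change -1.50, adjusted p = 0.129), with MA-10 replicate 1 the lowest library. Snhg4 had 29.6, 23.7 and 20.7 CPM against 31.2, 29.6 and 32.7 CPM and was the 1 host of the 6 with a positive estimate, 0.34 (adjusted p = 0.206). The median of the 6 was -0.89. Of 64 tested protein-coding genes with a snoRNA gene inside them, 5 rose and none fell by edgeR, where 9.04% of all genes passed. At an unadjusted p under 0.05, 24 were lower, against 22.7% of all genes. Most of these 24 encode ribosomal proteins, among them Rpl12, Rpl23a and Rps3, and also belong to the ribosomal protein genes described below. DESeq2 passed 17 lower and 6 higher, against 24.9% of all genes in either direction. The 5 that rose by edgeR were 2410002F23Rik (log2 fold change 2.12), Sf3b3 of the spliceosome (1.84), the chromatin remodeler Chd8 (1.26), the ribosome assembly factor Tsr1 (0.96) and Nop56 (0.90). With the replicate block only 2410002F23Rik and Sf3b3 of these passed, and with scaling by library size alone only 2410002F23Rik, Tsr1 and Nop56. Leaving out MA-10 replicate 3 or any single STARKO1 library ended the calls of Sf3b3, Chd8, Tsr1 and Nop56. Only 2410002F23Rik passed in each of these fits. The median of all 64 was -0.37, and 0.12 with scaling by library size alone. Relative to the median of all genes, which that scaling shifts, the list stayed lower, at -0.32 and -0.26. The ribosomal protein genes are part of these medians, and medians without them were not taken.

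Ribosomal protein genes, which share the TOP element with many hosts, also had their highest share in MA-10 replicates 2 and 3. Of the counts they took 4.61%, 8.62% and 7.78% in the MA-10 libraries and 4.23% to 4.41% in the STARKO1 libraries, while the 10 hosts took 0.0239%, 0.0704% and 0.0558% against 0.0195% to 0.0209%. Of 80 tested ribosomal protein genes, 77 had a negative estimate and 67 were highest in MA-10 replicate 2, against 32.9% of all genes. None passed an adjusted p of 0.05 by edgeR, and 58 were lower at an unadjusted p under 0.05, against 22.7% of all genes. DESeq2 fitted 81 and passed 45 lower and 1 higher, against 15.4% of all genes lower. Without MA-10 replicate 1 edgeR tested 81 and passed 67 lower and 2 higher, against 31.7% of all genes lower and 65.7% in either direction. Their median log2 fold change was -1.03. The sum of the host CPM was 0.519%, 0.817% and 0.717% of the sum of the ribosomal protein CPM in the MA-10 libraries and 0.470%, 0.475% and 0.460% in the STARKO1 libraries. Gas5 alone made up 33.4%, 56.8% and 47.6% of the host CPM in the MA-10 libraries and 28.7% to 33.7% in the STARKO1 libraries. Without Gas5 the hosts came to 0.345%, 0.353% and 0.376% of the ribosomal protein CPM in the MA-10 libraries and 0.312%, 0.319% and 0.328% in the STARKO1 libraries, so that the difference between MA-10 replicates 1 and 2 in this ratio rested on Gas5. What part the make-up of MA-10 replicate 1 has in the levels of either group was not tested.

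**Figure D5:**
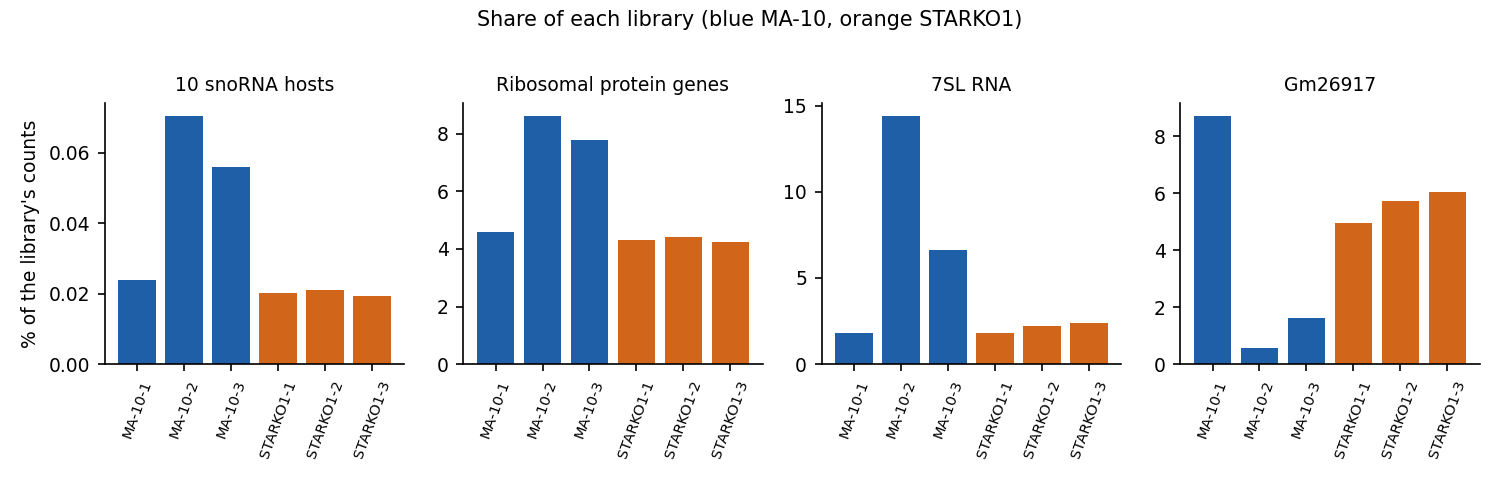
Bars starting at 0 give the percentage of each library's counts taken by the 10 snoRNA host genes, by the ribosomal protein genes, by the 7SL RNA and by the noncoding RNA Gm26917 (blue MA-10 replicates, orange STARKO1 replicates, each panel with its own axis). MA-10 replicate 1 resembles the STARKO1 libraries in the first 3 panels, and replicate 2 has the most of these and the least Gm26917.

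Of the genes whose proteins bind and process snoRNAs, single members passed the test. Over all lists other than the 10 hosts and the cell type markers, 10 of 198 tested genes passed by edgeR (5.05%). Of all tested genes 9.04% passed, so the lists were not called more often than genes at large. In the box C/D core (4 tested) Nop56, a scaffold of the particle and itself a snoRNA host, rose with 124, 155 and 114 CPM in the MA-10 libraries and 233, 240 and 259 CPM in the STARKO1 libraries (log2 fold change 0.90, SE 0.185, edgeR adjusted p = 0.0355). The methyltransferase Fbl (-0.42, adjusted p = 0.35) and the core proteins Snu13 (-0.48, adjusted p = 0.338) and Nop58 (0.28, adjusted p = 0.545) did not pass. In the H/ACA core (4 tested) the pseudouridine synthase Dkc1 rose, with 67.6, 62.6 and 65.3 CPM against 99.4, 105 and 106 CPM (log2 fold change 0.67, SE 0.139, adjusted p = 0.0364). Nop10 had the profile of the hosts, with 27.0, 228 and 125 CPM against 35.8, 31.2 and 33.7 CPM (log2 fold change -1.91, adjusted p = 0.0916), and Gar1 was at -1.17 (adjusted p = 0.148). Of 10 assembly factors none passed by edgeR, and DESeq2 passed 3, all lower, against 15.4% of all genes. At an unadjusted p under 0.05, 5 were lower and 1 higher, against 22.7% of all genes lower and 37.6% in either direction. The lowest unadjusted p was that of Ruvbl2, an ATPase of the assembly chaperone (log2 fold change -0.76, adjusted p = 0.0674).

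Among 14 genes that release or trim snoRNAs, Dis3, a catalytic subunit of the exosome, rose, with 55.6, 42.0 and 44.2 CPM in the MA-10 libraries and 86.6, 87.1 and 92.7 CPM in the STARKO1 libraries (log2 fold change 0.91, SE 0.167, edgeR adjusted p = 0.0263). The deadenylase Parn (-1.01, adjusted p = 0.0662) and the lariat-debranching enzyme Dbr1 (0.50, adjusted p = 0.0792) did not pass. Only Dis3 of the 14 passed, where 9.04% of all genes passed. At an unadjusted p under 0.05, 1 of the 14 was lower and 2 higher, against 22.7% of all genes lower and 37.6% in either direction. Of 17 genes of nonsense-mediated decay, Smg5, an effector of the pathway, rose, with 35.3, 21.7 and 23.4 CPM against 55.0, 55.2 and 61.6 CPM (log2 fold change 1.09, SE 0.221, adjusted p = 0.0335). The helicase Upf1 at the centre of the pathway had 172, 63.8 and 105 CPM against 175, 186 and 209 CPM, a profile opposite to that of the hosts among the MA-10 libraries (log2 fold change 0.74, adjusted p = 0.164). Its partner Upf2, with 80.6, 264 and 226 CPM against 88.7, 85.4 and 84.8 CPM, had the profile of the hosts (-1.14, adjusted p = 0.0981). Of the 17 genes, 11 had a negative estimate, against 52.9% of all genes, and the median was -0.31. At an unadjusted p under 0.05, 4 of the 17 were lower and 2 higher, against 22.7% of all genes lower and 37.6% in either direction. Only Smg5 of the 17 passed an adjusted p of 0.05, where 9.04% of all genes passed.

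Of 12 genes that control TOP mRNAs, Eif4ebp1, a repressor of translation that acts under mTOR, fell, with 235, 1012 and 652 CPM in the MA-10 libraries and 146, 149 and 152 CPM in the STARKO1 libraries (log2 fold change -2.09, SE 0.496, edgeR adjusted p = 0.0483). Larp1, which binds TOP mRNAs, had 203, 109 and 144 CPM against 239, 251 and 262 CPM (log2 fold change 0.72, adjusted p = 0.0923). Tsc2, a brake on mTOR, was at 0.67 (adjusted p = 0.0947), and Mtor itself was at 0.42 (adjusted p = 0.266). Only Eif4ebp1 of the 12 passed, where 9.04% of all genes passed. At an unadjusted p under 0.05, 1 of the 12 was lower and 3 higher, against 22.7% of all genes lower and 37.6% in either direction. The median of the 12 was 0.48, and 5 estimates were negative. Without MA-10 replicate 1 Zfas1, Nop56, Dkc1, Dis3, Smg5 and Eif4ebp1 kept their directions and passed. In that fit 65.7% of all tested genes passed in either direction. With the replicate block none of these 6 genes passed (edgeR adjusted p 0.0797 to 0.117), and leaving out MA-10 replicate 3 or any single STARKO1 library ended each of the 6 calls. Without MA-10 replicate 2, and likewise with scaling by library size alone, only Nop56 of the 6 passed (edgeR adjusted p = 0.0283 and 0.0314). The calls of Zfas1 and Eif4ebp1 were also lost, at adjusted p of 0.0501 to 0.0542, with RLE or upper quartile scaling, without a filter on low counts and with a minimum of 10 counts in every library.

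The genes most like the hosts in profile were found from log2 CPM over the 6 libraries, centred on each gene's mean, by the root mean square difference from the mean profile of the 10 hosts. Among the 8213 other genes whose mean reached 10 CPM those nearest included Mpc1, a subunit of the mitochondrial pyruvate carrier (0.0407), the prefoldin subunit Pfdn6 (0.0415), Ndufa2 of respiratory complex I (0.0417) and the ribosomal protein Rps27a (0.0472), where the median gene was at 0.863. Mpc1 had 45.7, 172 and 123 CPM in the MA-10 libraries and 41.3, 42.2 and 40.02 CPM in the STARKO1 libraries. The hosts themselves lay between 0.108 for Snhg1 and 0.626 for Snhg17 from their own mean, so the profile was not particular to them.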

How the data were processed

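Total RNA of 3 MA-10 and 3 STARKO1 samples was sequenced after preparation with the SMARTer Stranded Total RNA Pico kit. The deposited table holds the authors' estimated counts for each gene, unscaled and separate for each replicate; the submitters' processing notes name STAR 2.6.1d, Partek and mm10. Values that are not whole occurred in 54.2% of the 14774 genes, so reads shared between genes had already been divided. The members and gene lists were chosen with earlier results of these data known. The counts were rounded and analysed with edgeR 4.0.16 in R 4.3.3 (filterByExpr, TMM, quasi-likelihood test without a block) and Benjamini-Hochberg adjustment over 11939 genes. A gene was called at an adjusted p under 0.05. The SE of each log2 fold change was taken as its absolute value over the root of the F statistic, and levels are mean ± SD over 3 libraries. Named were all 10 hosts, Star, library composition genes, up to 4 genes of each list (those called, or else those with the lowest unadjusted p) and the 5 genes nearest in profile, of which 1 is not reported here; other list genes given by value, among them Dancr, Snhg4, Fbl, Nop10, Gar1, Upf1, Upf2, Larp1, Chd8 (the fifth called protein-coding host), Cyp11a1 and Cyp17a1, were chosen after their values were seen. Sequences came from RefSeq (GRCm38.p6; Snhg6 had no entry) and GENCODE M21, in which 14677 genes matched by symbol and chromosome. The common biological coefficient of variation was 0.291, so the spread between replicates, more than depth, limited precision, except in rows with few counts. Alternatives were DESeq2 1.42.0, other scalings, filters and thresholds, a replicate block, gene length offsets, thinning to the smallest library, testing without the 50 most abundant genes and leaving out each library; summing hosts with nested rows and MA-10 replicate 1 alone were chosen after seeing the data.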

Additional observations from a re-analysis of the deposited data

How the results depend on the processing

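Replicate numbers run from 1 to 3 in each cell line. Deviations from the cell line means were nearly uncorrelated between same-numbered libraries (r of -0.0165, 0.0455 and 0.0201 for numbers 1, 2 and 3). With 3 libraries per line and MA-10 replicate 1 far from the others, these correlations cannot show whether same-numbered libraries shared material. With the replicate block, and with gene length offsets in the same fit, 234 genes were called in each, 0 hosts and 2 genes of the lists other than the cell type markers; Snhg5 was at -1.95 and -1.70 and Snhg12 at -1.32 and -1.19, both no longer past the threshold.

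Of all genes, 1079 were called in the fit reported, 47.5% of them higher in STARKO1 cells, with 2 hosts and 10 genes of the lists other than the cell type markers (list genes). DESeq2 called 3385 genes, 7 hosts and 75 list genes, adding Gas5 (-2.60), Snhg1 (-1.59), Snhg3 (-2.03), Snhg6 (-1.47) and Snhg8 (-2.09). Scaling by library size alone called 330 genes (63.6% higher), 0 hosts and 3 list genes, with Snhg5 at -1.52 and Snhg12 at -0.84 not called and Snhg15 (0.067) and Snhg17 (0.19) reversed. A minimum of 10 counts in every library called 695 genes and 1 host, and lost Snhg5 (-2.10, adjusted p = 0.0505). At an adjusted p under 0.1, 3471 genes, 6 hosts and 76 list genes were called, adding Gas5 (-2.63), Snhg1 (-1.63), Snhg6 (-1.50) and Snhg8 (-2.12); under 0.01, 179 genes, 0 hosts and 1 list gene were called, losing Snhg5 (-2.13) and Snhg12 (-1.34). Summing hosts with their nested rows reversed Snhg3 (0.11), and MA-10 replicate 1 alone reversed Snhg3 (1.04), Snhg15 (0.43) and Snhg17 (0.13).

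Leaving out 1 library gave 89 (without STARKO1 replicate 1) to 7990 called genes (without MA-10 replicate 1), 0 to 8 hosts and 1 to 161 list genes. The median over the hosts ran from -1.86 to -1.12, Gas5 from -3.02 to -1.88, Snhg1 from -1.94 to -1.06, Snhg3 from -2.51 to -1.25, Snhg5 from -2.41 to -1.58, Snhg6 from -1.78 to -1.06, Snhg8 from -2.48 to -1.62, Snhg12 from -1.41 to -1.17, Snhg15 from -0.76 to 0.17, Snhg17 from -0.46 to 0.051 and Snhg20 from -1.16 to -0.58. Without MA-10 replicate 2, Snhg15 (0.17) and Snhg17 (0.051) were reversed. The cause of these changes was not tested.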
